A study of Mus musculus with 140 samples.

Results

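The clustered Zfp genes are the mouse zinc finger genes that stand close to one another in the genome. Members were all protein-coding autosomal genes of the GENCODE M21 annotation (mm10) whose symbol is Zfp followed by digits and whose body lies within 100 kb of another such gene. Of 358 autosomal genes with such symbols, 204 were members and 154 stood apart, among 20807 protein-coding autosomal genes in all. The members formed 49 clusters on 13 chromosomes. Chromosome 7 held 13 clusters with 71 members, chromosome 17 held 32 members and chromosome 13 held 23. Of the clusters, 21 were pairs, and the 15 clusters of 5 or more genes held 119 members. The rule also bars Zfp42, Zfp407, Zfp521, Zfp638, Zfp423 and Zfp536 by name, which removed no gene, since each lies farther than 100 kb from other Zfp genes and counts among those that stood apart. Membership rested on symbol and position and used no value of the interval lists.

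Each listed interval is a stretch of mouse DNA that the study called a silencer, a sequence that lowers transcription. The assay, Ss-STARR-seq, clones sheared mouse genomic fragments into a reporter plasmid and reads reporter RNA from transfected cells beside the plasmid library. Reporter RNA came from 64 libraries of MEFs, mouse embryonic fibroblasts grown in DMEM with serum, and from 56 libraries of mESCs, mouse embryonic stem cells grown in N2B27-2i/LIF medium. By their titles the MEF libraries fall into 4 output sets of 16 and the mESC libraries into 3 output sets of 20, 20 and 16, so 64 and 56 are not numbers of independent replicates. A further 20 libraries were the input plasmid pool, labelled mESCs as their source, and 1 interval list per cell type was used here. No genotype, strain or passage is given in the labels, and the protocol does not say whether the reporter MEFs met the iCD1 induction medium it also lists for MEFs. The input titles carry the name hPGK, which the labels do not explain. An interval therefore describes a fragment tested on a plasmid, and says nothing of that DNA's state in its own place in the genome. Without read counts in the lists, depth is unknown. The 95% limits given below cover counting error only, because 1 list per cell type leaves no spread between replicates.

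Zfp genes of this kind code for proteins with arrays of C2H2 zinc fingers, each finger a short loop held by a pair of cysteines and a pair of histidines around a zinc ion. Many also carry a KRAB box, which binds the corepressor TRIM28, and TRIM28 in turn brings the histone methyltransferase SETDB1 and HP1 proteins. KRAB zinc finger proteins are best known for silencing transposable elements in embryonic stem cells, and their genes multiplied by tandem duplication, so that neighbours resemble each other. Translated from the annotation, 200 members had at least 1 finger with the spacing of a C2H2 finger. The median was 11 fingers and the longest array had 27. A KRAB-like string was found in 154 members, against 42 of the 154 Zfp genes that stood apart, and a SCAN-like string, another protein contact domain, in 7 members.

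Intervals were assigned to a gene where they overlapped its territory, here the gene body extended by 10 kb at both ends, and overlapping territories were merged for densities. Coordinates of intervals are printed as the lists give them, and each printed sequence runs from the listed start to the base before the listed end unless said otherwise, on GRCm38.p6 (the assembly that mm10 displays), 5′ to 3′ on the strand of the named gene. The first set is shown because it is the only member DNA where a listed interval touched codons of a zinc finger. Only the coding part of each interval is printed, capitals mark codons from the first cysteine to the last histidine of a matched finger, and lower case marks linkers and other codons. The intervals were chr11:50872809-50873059 in Zfp454 and chr13:67041781-67041931 in Zfp712, both from the MEF list and overlapped by mESC intervals, and chr7:30056101-30056301 in Zfp82 from the mESC list. All 3 genes lie on the minus strand, and the coding parts span chr11:50872996-50873058, chr13:67041781-67041930 and chr7:30056156-30056300.
Zfp454: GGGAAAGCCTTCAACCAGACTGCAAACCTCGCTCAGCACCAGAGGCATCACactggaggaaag
Zfp712: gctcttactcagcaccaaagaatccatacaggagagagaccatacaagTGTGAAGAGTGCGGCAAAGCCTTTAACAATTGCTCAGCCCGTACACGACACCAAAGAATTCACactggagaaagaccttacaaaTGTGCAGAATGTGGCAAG
Zfp82: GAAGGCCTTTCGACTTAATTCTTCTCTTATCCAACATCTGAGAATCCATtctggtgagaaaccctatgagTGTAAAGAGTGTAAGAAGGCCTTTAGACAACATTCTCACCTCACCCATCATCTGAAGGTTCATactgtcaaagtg

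The second set holds member intervals that stood highest by the authors' fold, with 1 promoter interval listed identically in both cell types. Here capitals mark bases outside soft-masked repeats and lower case marks repeat sequence. Zfp984 (chr4:147793963-147794063, MEF list) and Zfp983 (chr17:21640741-21640791, mESC list) are repeat from end to end. Zfp868 (chr8:69613031-69613281) and Zfp820 (chr17:21834638-21834788) are mostly repeat, and both come from the MEF list. Zfp583 (chr7:6324001-6324151, MEF list) and Zfp846 (chr9:20591896-20591946, mESC list) mix both kinds of sequence, and the Zfp933 promoter interval (chr4:147847566-147847816, both lists) has no repeat.
Zfp984: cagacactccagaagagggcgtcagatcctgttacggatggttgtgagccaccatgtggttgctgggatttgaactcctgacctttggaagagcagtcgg
Zfp983: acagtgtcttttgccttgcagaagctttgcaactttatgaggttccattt
Zfp868: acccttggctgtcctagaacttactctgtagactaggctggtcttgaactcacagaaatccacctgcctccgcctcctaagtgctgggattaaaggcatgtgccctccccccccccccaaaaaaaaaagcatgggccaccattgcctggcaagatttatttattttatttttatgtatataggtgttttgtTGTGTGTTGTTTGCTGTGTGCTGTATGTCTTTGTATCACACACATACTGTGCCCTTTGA
Zfp820: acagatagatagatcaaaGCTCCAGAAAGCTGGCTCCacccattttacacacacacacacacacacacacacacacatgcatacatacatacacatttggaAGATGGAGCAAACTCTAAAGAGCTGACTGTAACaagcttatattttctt
Zfp583: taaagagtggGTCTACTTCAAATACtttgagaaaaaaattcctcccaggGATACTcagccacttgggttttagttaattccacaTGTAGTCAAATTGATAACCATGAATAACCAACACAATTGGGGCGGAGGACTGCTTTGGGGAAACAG
Zfp846: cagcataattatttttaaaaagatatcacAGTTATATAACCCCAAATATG
Zfp933: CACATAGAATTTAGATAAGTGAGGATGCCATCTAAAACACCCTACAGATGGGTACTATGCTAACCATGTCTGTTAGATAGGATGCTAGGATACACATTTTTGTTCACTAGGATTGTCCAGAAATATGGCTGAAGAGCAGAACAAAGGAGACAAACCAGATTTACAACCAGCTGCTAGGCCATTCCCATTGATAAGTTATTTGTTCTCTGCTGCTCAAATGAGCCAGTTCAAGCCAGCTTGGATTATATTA

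Silencer intervals were denser around the clustered Zfp genes than around protein-coding genes in general. The merged member territories covered 6.96 Mb and held 316 MEF and 443 mESC intervals. That is 45.4 MEF intervals per Mb (95% exact Poisson interval 40.5 to 50.7), against 38.5 over all protein-coding autosomal territories, a ratio of 1.18. In mESCs the density was 63.6 per Mb (57.8 to 69.8), against 49.97, a ratio of 1.27. Around Zfp genes that stood apart the densities were 40.7 and 54.7 per Mb, ratios of 1.06 and 1.10. The Vmn2r genes, a clustered family of pheromone receptor genes that also grew by duplication, lay below the reference in both lists, at 28.4 and 39.2 per Mb, ratios of 0.736 and 0.785. Many member intervals hold a 50-base window with an exact copy elsewhere in the genome, here called a copied window. Counting intervals without one, per Mb of DNA without copies, gave the members 30.6 MEF intervals per Mb (26.2 to 35.5), 0.947 times the value for all genes, and 44.7 mESC intervals per Mb (39.4 to 50.6), 1.11 times that value. The limits of both hold the value for all genes. This count was chosen after the data were seen. A whole interval was dropped for 1 copied window, while only the copied windows left the Mb. This dropped 45.9% of MEF and 43.6% of mESC member intervals beside 19.7% of member windows. Over all genes it dropped 22.5% and 25.8% beside 7.66%. Such counting lowers both ratios, so they do not show whether density differed outside copied DNA.

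Per gene, the median member density was 36.3 MEF and 57.1 mESC intervals per Mb, against medians of 32.7 and 41.9 over all protein-coding autosomal genes. A density of at least 2 times the reference was reached by 44 members in MEFs (21.6%) and by 45 in mESCs (22.1%). The background shares were 13.2% and 11.9% of all protein-coding autosomal genes. Among the Zfp genes that stood apart, 29 (18.8%) and 21 (13.6%) reached that density. A total of 16 members did so in both lists. The share of all genes that did so in both was not computed, so this count has no background. Among genes with territories of 25.3 to 58.4 kb, the range most members occupy, 24.2% and 22% of 182 members reached the threshold, against 13.1% and 13.7% of 10407 genes that are no Zfp genes. Without intervals that hold a copied window, 29 members reached the MEF threshold (14.2%, against 12.1% of all genes) and 31 the mESC threshold (15.2%, against 11.9%). This leaves out a larger part of the member intervals than of those around all genes.

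Both cell types listed intervals around most of these genes, and mESCs listed more. Intervals of both lists stood around 138 members, of the MEF list alone around 11 and of the mESC list alone around 35, or 67.6%, 5.39% and 17.2% of members. Over all protein-coding autosomal genes these shares were near, at 63.8%, 6.50% and 13.6%. More mESC than MEF intervals were listed at 106 members, fewer at 49, and equal numbers at 29, or 52.0%, 24.0% and 14.2% of members, against 46.8%, 20.4% and 16.7% of all genes. The mESC list is also longer as a whole, with 115165 intervals against 89596. The mESC share of all member intervals was 58.4% (95% exact binomial interval 54.8 to 61.9), and it was 56.5% around all protein-coding autosomal genes, so the members' share lay within counting error of the reference. A two-sided exact binomial test compared each gene's mESC share with 56.2%, the share over all tested genes, with Benjamini-Hochberg adjustment over 3511 genes with at least 10 intervals. It called 0 genes toward mESCs and 0 toward MEFs (a background of 0% in each direction), and so 0 of the 15 members tested. At an unadjusted p below 0.05 there were 28 genes (0.797%) and 0 members. Intervals shared between the lists count once in each, which pulls shares toward the middle. Neither the test nor the limits of the mESC share allow for this, since both treat intervals as independent draws. Few members were long enough to hold 10 intervals, and only 1 held at least 20. Below about that number even a gene with mESC intervals alone could hardly pass the adjustment over 3511 genes. The 0 calls therefore do not show that members kept to the reference share. As intervals are not replicates, the test describes these lists.

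**Figure D1:**
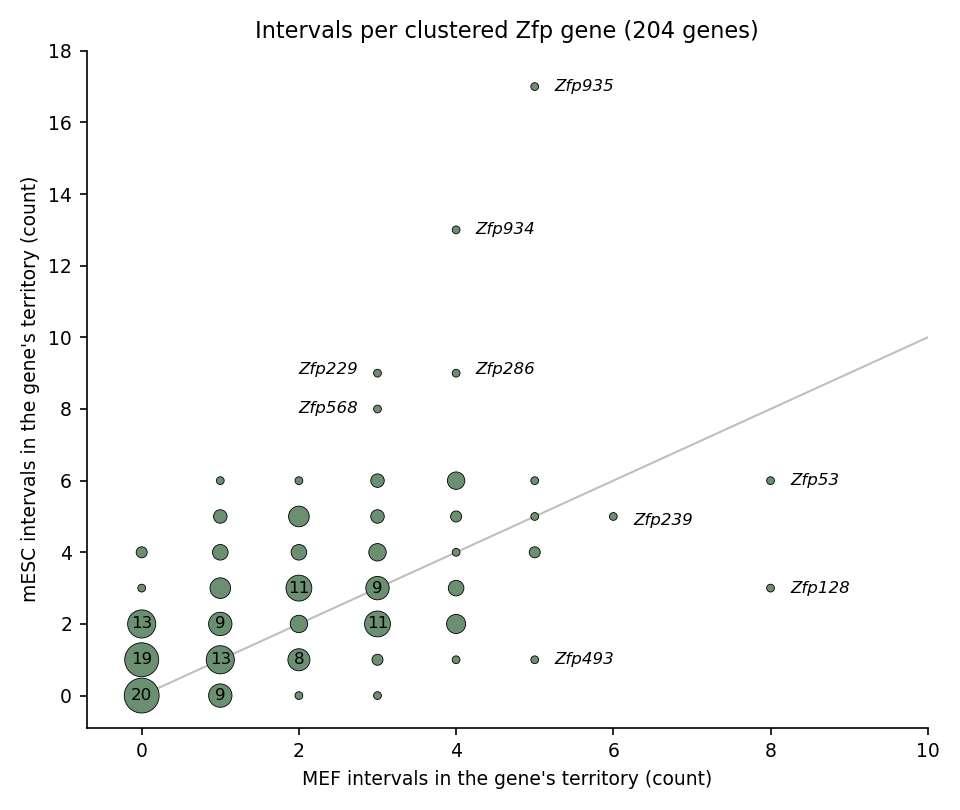
Intervals in the territory of each of the 204 clustered Zfp genes, MEF list on the x axis and mESC list on the y axis, both as counts. Circle area gives the number of genes at that pair of counts (printed where it is at least 8), and the line marks equal counts. The largest circle is the 20 genes with no interval, and Zfp935 stands apart with 5 MEF and 17 mESC intervals.

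In the MEF list, Zfp128 (chr7:12881177-12893422, 7 fingers) and Zfp53 (chr17:21488998-21510473, 15 fingers) had the most MEF intervals, with 8 each. Zfp128 had 8 MEF and 3 mESC intervals, or 248 and 93.0 per Mb of its territory, the lowest mESC share of the tested members at 27.3% (p = 0.0688 by the exact binomial test, adjusted p = 1). Zfp53 had 8 MEF and 6 mESC intervals, or 193 and 145 per Mb. Zfp239 (chr6:117862100-117873291) followed with 6 and 5, and its own pair with Zfp637 reached 134 intervals per Mb in each list, from 7 intervals each. A tie of 6 members at 5 MEF intervals came next. Zfp266 had 6 mESC intervals beside these, Zfp595 and Zfp810 had 4, Zfp7 had 5, Zfp493 had 1 and Zfp935 had 17. In the MEF list these 9 genes stood at 1.04 to 6.44 times the reference density, with Zfp935, the longest of them, lowest. In the mESC list Zfp493 lay below the reference, at 30.5 per Mb.

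In the mESC list Zfp935 and Zfp934 had the most intervals, 17 and 13, against 5 and 4 in MEFs. They are neighbours on chromosome 13 (chr13:62453715-62558511 and chr13:62479827-62571199) whose bodies overlap, so 13 of those mESC intervals count for both genes. The pair held 17 mESC and 5 MEF intervals, or 124 (72.0 to 198) and 36.4 (11.8 to 84.9) per Mb. Zfp935 came closest to a call of any member, with an mESC share of 77.3% (exact binomial p = 0.0532, adjusted p = 1). Of the 22 intervals of the pair, 18 held a copied window, and without these Zfp935 kept 1 MEF and 3 mESC intervals. The part of copied DNA in this difference was not tested. The annotated Zfp935 protein has a KRAB-like string and matched no complete finger. Next came Zfp229 (3 MEF and 9 mESC intervals), Zfp286 (4 and 9) and Zfp568 (3 and 8), with mESC shares of 75%, 69.2% and 72.7% and adjusted p-values of 1 in the same test.

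A set of 18 Zfp genes chosen by name, several of them known for silencing repeats or imprinted genes, was read in the same way, and 15 of them were members. Their median density was 32.1 MEF and 32.6 mESC intervals per Mb, below the medians of all members. Of these 15 genes, 9 had more mESC intervals, 3 had more MEF intervals, 1 had equal numbers and 2 had none. Zfp568, which represses a placental transcript of the growth factor gene Igf2, stood highest in mESCs at 124 per Mb, against 46.6 in MEFs. Zfp809, which binds a primer binding site of murine leukaemia viruses, had 2 MEF and 4 mESC intervals, or 53.1 and 106 per Mb, and 0 of the 6 was shared between lists. Zfp445, which maintains genomic imprints, had 2 and 3 intervals, or 48.2 and 72.3 per Mb. Zfp985 on chromosome 4 had 4 and 5, or 77.0 and 96.3 per Mb.

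The others of the set had between 0 and 4 intervals in each list. Zfp932 had 3 MEF intervals and 1 mESC interval, Zfp459 had 2 and 1, and Zfp819 had 1 and 0, the 3 genes of the set with more in MEFs. At 88.5 MEF intervals per Mb, Zfp932 was the densest of the set in MEFs. Zfp708 had 1 and 2, Zfp961 had 1 and 4, Zfp260 had 1 and 3, and Zfp30 had 1 in each list. Zfp534 and Zfp59 had 1 interval each, from the mESC list alone. Zfp600 (chr4:146156824-146198755) and Zfp979 (chr4:147611937-147642513), both on chromosome 4, had no interval in either list. Counts this low cannot order these genes. Zfp57, Zfp37 and Zfp36 had no such neighbour within 100 kb and were no members.

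Members with and without a KRAB-like string had like densities. Territories of the 154 members with the string held 45.5 MEF and 63.3 mESC intervals per Mb (40.1 to 51.5 and 56.9 to 70.2). Territories of the 50 members without it held 44.4 and 63.6 per Mb (34.4 to 56.4 and 51.5 to 77.7). The limits of both groups overlap in each list.

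Among the 6 clusters with the most members, density varied. The cluster from Zfp84 to Zfp146 (chr7:29768552-30169750, 15 genes, with Zfp568, Zfp82, Zfp30 and Zfp260 among them) held 19 MEF and 37 mESC intervals. That is 47.1 per Mb in MEFs (28.3 to 73.5) and 91.7 per Mb in mESCs (64.5 to 126), with 66.1% of intervals from mESCs (52.2 to 78.2). A cluster of equal size on chromosome 17, from Zfp677 to Zfp994 (chr17:21383748-22225616), held 37 and 41 intervals, or 54.5 and 60.4 per Mb, with an mESC share of 52.6% (40.9 to 64.0). The chromosome 13 cluster with Zfp708, Zfp712 and Zfp459 (chr13:67038596-67553830, 14 genes) held 18 and 23, or 42.4 and 54.2 per Mb. A group of 10 genes from Zfp180 to Zfp94 (chr7:24081924-24316666) held 7 and 14, or 28.8 and 57.6 per Mb. The 8 genes from Zfp871 to Zfp563 (chr17:32765496-33110705) held 19 and 23, the highest pair of densities of these 6, at 77.2 and 93.4 per Mb. The 7 genes from Zfp786 to Zfp746 (chr6:47819266-48086593) held 12 and 16, or 48.4 and 64.6 per Mb.

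A further cluster of 7 genes on chromosome 7, from Zfp553 to Zfp689 (chr7:127233061-127449158), was singled out after its values were seen. It held 1 MEF interval and 13 mESC intervals, so that 92.9% of its intervals came from mESCs (66.1 to 99.8). Its MEF density was 6.5 per Mb (0.16 to 36.3) and its mESC density 84.7 per Mb (45.1 to 145). It had the highest mESC share of the clusters with intervals of both lists, and is given as a description with no test. The only MEF interval there was shared with mESCs. Over all clusters, 27 of 49 lay above the MEF reference density and 31 above the mESC reference density. A total of 5 clusters had no MEF interval, and 5 had no mESC interval.

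**Figure D2:**
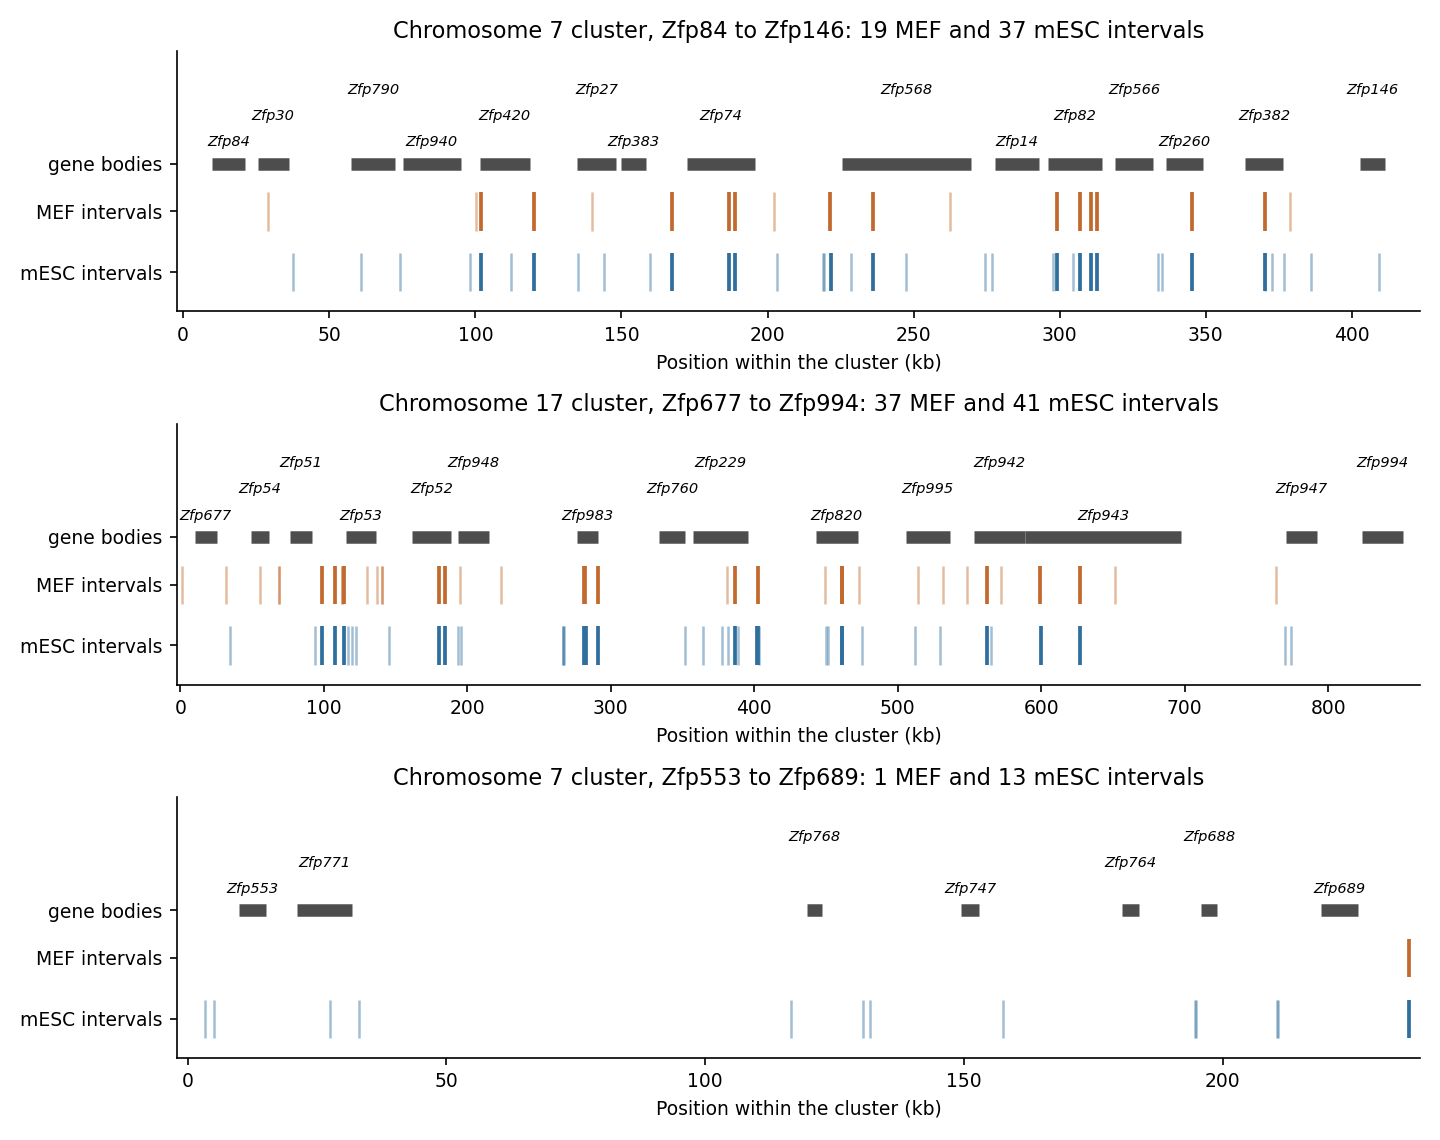
Maps of 3 Zfp clusters, with position in kb from the start of the first territory on the x axis, gene bodies as grey bars, and member intervals as ticks at their midpoints (MEF orange, mESC blue; dark ticks overlap the other list, pale ticks do not). DNA more than 10 kb from every member gene is left empty. The upper cluster holds 19 MEF and 37 mESC intervals, the middle one 37 and 41, and the lower one 1 and 13.

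About equal parts of the member MEF intervals were shared with mESCs and listed in MEFs alone. Of 316 member MEF intervals 157 (49.7%, 44 to 55.3) overlapped an mESC interval by at least 1 bp, against 47.3% around all genes. Of 443 member mESC intervals 153 (34.5%, 30.1 to 39.2) overlapped a MEF interval, against 36.3%. Both shares were within counting error of the reference. Identical start and end in both lists were found for 11 intervals, the Zfp933 promoter interval among them. Shared intervals had a higher median fold than the others, 2.41 against 2.27 in MEFs and 2.54 against 2.33 in mESCs. They were also longer, with median lengths of 250 against 150 bp and 300 against 200 bp, and more often held a copied window, 52.9% against 39.0% in MEFs and 54.2% against 37.9% in mESCs. A longer interval has more bases to overlap and more windows to be copied, and lengths were not matched.

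The authors' fold is a ratio listed with each interval, always above 2, and no source used here says which libraries stand behind the ratio. It serves here only to rank intervals within a list. The median member fold was 2.32 in MEFs and 2.38 in mESCs, close to 2.35 and 2.39 around all genes. The highest member fold in MEFs was 27.2, in an intron of Zfp984. This interval is 100 bp of soft-masked repeat, the sequence printed above, and all 51 of its 50-base windows occur elsewhere, up to 945 times. It was followed by an intron interval of Zfp868 with a fold of 7.26 (3.75 in mESCs), one in the 3′ flank of Zfp397 with 7.00, one in an intron of Zfp583 with 6.35, and one in an intron of Zfp820 with 6.13. The Zfp820 interval had nearly the same fold of 6.10 in mESCs, at positions 8 bp away. A fold of 2.72 in MEFs and one of 2.71 in mESCs recur at other intervals. The MEF folds of Zfp984, Zfp868, Zfp583 and Zfp820 stand in ratios of small whole numbers to 2.72. So do the mESC folds of Zfp868 and Zfp820 to 2.71. Whether such folds rest on few reads was not tested, so the near equality at Zfp820 may not reflect a measured agreement.

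In mESCs the highest member folds lay 5′ of Zfp983 on chromosome 17. The first, chr17:21640741-21640791, had a fold of 16.3, also in a simple ratio to the recurring 2.71. The third by rank, chr17:21640841-21641026, had 6.93, and the fifth, chr17:21640491-21640641, had 6.10. All of them were soft-masked repeat throughout, lay within 10.1 kb of the gene start and were absent from the MEF list. The windows of the second of these occurred up to 10028 times in the genome, while the single window of the first occurred 2 times. Between them in rank came an intron interval of Zfp846 with a fold of 8.58 and an interval 3′ of Zfp287 with 6.50, of which neither was shared. The folds of 8.58 and 6.93 likewise stand in ratios of small whole numbers to 2.71. Whether they rest on few reads was not tested.

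Within the genes, introns and flanks carried most intervals and coding sequence carried few. Intervals were assigned by their midpoint, promoters first (1 kb either side of any transcript start). Introns held 136 MEF and 195 mESC intervals, or 48.9 (41.0 to 57.8) and 70.1 (60.6 to 80.6) per Mb, against 39.9 and 51.5 in the introns of all genes. The 5′ flanks held 52.2 and 69.2 per Mb, against 42.0 and 55.8, and the 3′ flanks 50.02 and 68.6, against 36.7 and 48.0. Promoters held 16 and 25 intervals, or 29.0 (16.6 to 47.1) and 45.3 (29.3 to 66.9) per Mb, against 22.6 and 30.3. Coding exons held 4 and 3, or 12.1 (3.30 to 31) and 9.07 (1.87 to 26.5) per Mb, against 16.3 and 21.1. In 3′ UTRs the values were 22.6 (9.75 to 44.5) and 45.2 (25.8 to 73.3), against 36.9 and 45.8. The members' limits for introns and 3′ flanks lay above the reference in both lists, and those for 5′ flanks in mESCs alone. For promoters, coding exons and 3′ UTRs the limits held the reference. Parts of the members were marked from member genes alone, so their flanks may hold exons, introns or promoters of other genes. Flanks of all genes leave out every gene body, so the flank values compare unlike DNA. The 5′ UTRs outside promoters, 13.3 kb in all, held 0 MEF intervals and 1 mESC interval.

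**Figure D3:**
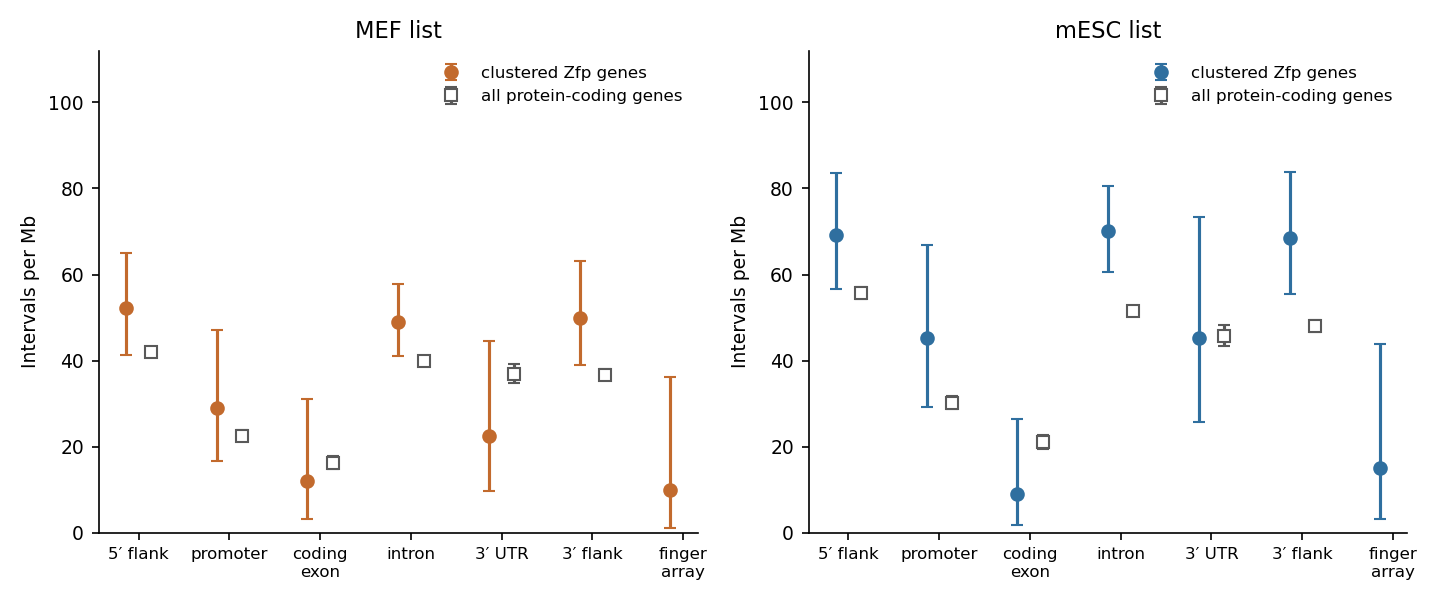
Intervals per Mb (y axis) in each part of the gene (x axis) for the MEF list (left) and the mESC list (right). Filled circles are clustered Zfp genes, open squares all protein-coding autosomal genes, and bars are 95% exact Poisson intervals. Flanks of clustered Zfp genes may hold bodies of other genes, which flanks of all genes leave out. The finger array is drawn for the clustered genes alone, with intervals counted by any overlap and not by midpoint. Of the parts drawn, coding exons and finger arrays of clustered Zfp genes lie lowest, at 9.07 to 15.0 per Mb, and their introns and flanks highest; 5′ UTRs are not drawn.

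The zinc finger arrays themselves held few intervals. From first to last finger, 198 member arrays spanned 200 kb. They held 2 MEF intervals, in Zfp454 and Zfp712, or 10.0 per Mb (1.21 to 36.1), and 3 mESC intervals, in Zfp454, Zfp712 and Zfp82, or 15.0 per Mb (3.10 to 43.9). All of these had low folds. Zfp454 had 2.20 in MEFs and 2.33 in mESCs, and its interval reached only the end of the last finger, shown above, before running on into the 3′ UTR. Zfp712 had 2.06 and 2.09, over an inner part of its array with 1 whole finger. Zfp82 had 2.06, in mESCs alone, at the end of its array. Of the 50-base windows in the arrays 13.2% had an exact copy elsewhere, against 19.7% in the whole territories. Arrays lay within the limits of the members' coding exons as a whole. The 2 counts differ in rule, since array intervals were counted by any overlap and coding exon intervals by midpoint.

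Promoter intervals of members were few. Within 1 kb of a member gene's start lay 9 MEF and 14 mESC intervals, and 7 of each overlapped the other list. In MEFs the highest folds were 3.02 at Zfp105, 2.33 at Zfp933 and 2.32 at Zfp551, and each overlapped an mESC interval, with folds of 3.28, 2.71 and 2.35. In mESCs the highest were 4.91 at Zfp112, 4.06 at Zfp948 and 3.28 at Zfp105, and those at Zfp112 and Zfp948 were not in the MEF list. The Zfp933 sequence printed above has its midpoint 675 bp past the gene start, is 40% GC, has no CpG and is unique in all its windows.

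Member intervals were rich in repeats. Soft-masked repeat made up 49.4% of member MEF interval bases and 51.7% of member mESC interval bases, against 38.1% and 40.2% around all genes. The member territories themselves were 37.1% repeat, against 28.7%. Intervals that were at least 50% repeat were then counted per Mb of repeat, and the rest per Mb of other DNA. The repeat-rich density was 56.5 per Mb in MEFs (47.7 to 66.5), 1.27 times the value of 44.7 for all genes, and 88.3 in mESCs (77.2 to 100.5), 1.42 times the value of 62.2. The repeat-poor density was 38.9 (33.3 to 45.2) and 49.2 (42.8 to 56.2), 1.08 and 1.09 times the values for all genes, which lay within these limits. Zfp genes that stood apart had ratios of 1.19 and 1.20 for repeat-rich and 0.984 and 1.03 for repeat-poor intervals. The Vmn2r genes had 0.646 and 0.572 for repeat-rich intervals, although 50.6% of their territory is repeat. Which repeat families lie in the intervals was not analysed here.

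**Figure D4:**
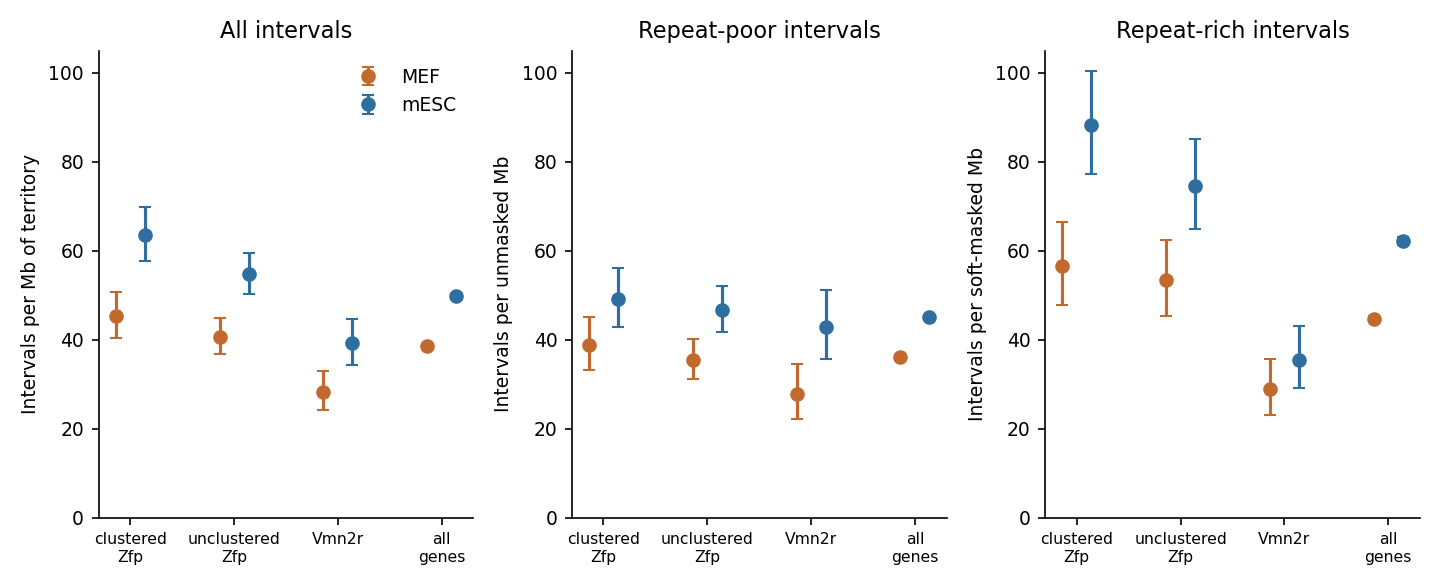
Interval density (y axis) for clustered Zfp genes, Zfp genes that stood apart, Vmn2r genes and all protein-coding autosomal genes. The left panel gives all intervals per Mb of territory, the middle panel intervals under 50% repeat per unmasked Mb, and the right panel the other intervals per soft-masked Mb; points are MEF (orange) and mESC (blue) values and bars are 95% exact Poisson intervals. In the right panel the clustered Zfp genes stand at 56.5 and 88.3 per Mb, the highest of the 4 sets.

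An interval was called copied where at least 1 of its 50-base windows occurred exactly elsewhere in the genome. Copied intervals made up 145 of 316 in MEFs (45.9%) and 193 of 443 in mESCs (43.6%), against 22.5% and 25.8% around all genes. Zfp genes that stood apart had 29.1% and 33.4%, and the Vmn2r genes more than the members, 58.7% and 50.6%. Of the members' copied intervals, 93 and 135 had a window with more than 10 copies, as dispersed repeats do, and 52 and 58 had 2 to 10 copies. Copies in the same cluster were found for 54 and 62 intervals, and in another member cluster for 85 and 117. By window, 15.4% and 15.9% of interval windows were copied, against 19.7% of all windows in the member territories.

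Few copies of a listed stretch were themselves listed. Among intervals whose windows had 2 to 10 copies, 20 MEF intervals had 43 copies inside member territories, and 0 of the 43 overlapped a MEF interval. In mESCs 19 intervals had 41 copies there, and 3 of the 41 overlapped an mESC interval, at Zfp947 (copy of an interval at Zfp758) and within Zfp975, whose intervals are copies of each other. The listed intervals cover 1.03% and 1.53% of the member territories. The matching stretch was usually short, with medians of 14 and 13 windows. One long example lies on chromosome 4. The MEF interval chr4:146460956-146461256 at Zfp992, with a fold of 2.97, shares 178 windows with chr4:146652451-146652677 at Zfp993, a gene with no listed interval. How the authors placed reads with several equal positions is not given in the sources used here, and its part in these counts was not tested.

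Genes with no interval lay more often in copied DNA than the others. The 20 members with no interval in either list (9.80%, against 16.2% of all protein-coding autosomal genes) were Zfp120 and Zfp937, Zfp965 and Zfp968 on chromosome 2, Zfp600 and Zfp987, Zfp978, Zfp979 and Zfp993 on chromosome 4, and Zfp93, Zfp97, Zfp114, Zfp273, Zfp456, Zfp524, Zfp575, Zfp580, Zfp628, Zfp764 and Zfp994. Between 2.39% and 100% of the windows of their territories had an exact copy elsewhere, with a median of 31.3%, against a median of 6.28% for the 184 members with an interval. Over 50% of windows were copied at 8 of the 20 and at 9 of the 184. Zfp965 and Zfp968 were copied over their whole territories, Zfp97 over 95.5%, Zfp987 over 88.4% and Zfp600 over 84.5%. The small territories of Zfp524, Zfp580 and Zfp628 were copied over 3.51% at most.

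**Figure D5:**
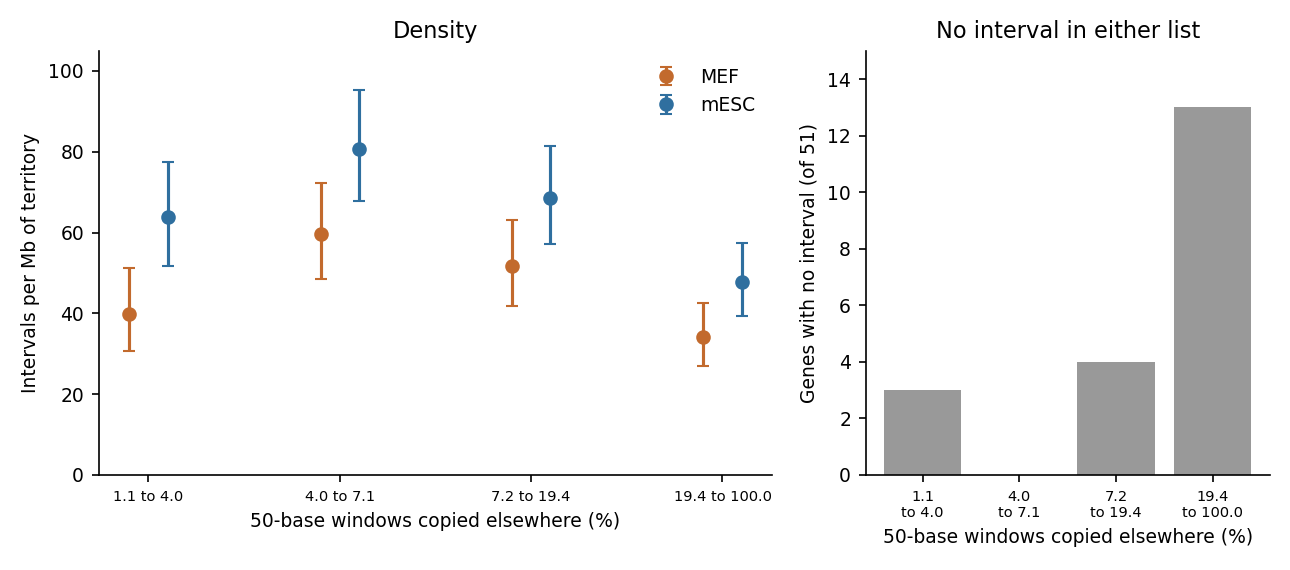
The 204 members in 4 groups of 51 by the percentage of 50-base windows of their territory that have an exact copy elsewhere (x axis). The left panel gives intervals per Mb for MEFs (orange) and mESCs (blue) with 95% exact Poisson intervals, and the right panel the number of genes without an interval. The group with the most copied DNA has the lowest mESC density, 47.8 per Mb, and 13 of the 20 genes without an interval.

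Divided into 4 groups of 51 by copied windows, the members with the fewest intervals per Mb were those in the most copied DNA, followed by the least copied ones. The least copied group (1.06% to 3.96% of windows) had 39.9 MEF and 63.7 mESC intervals per Mb. The next had 59.6 and 80.6, and the one after that 51.7 and 68.5. The most copied group (19.4% to 100%) had 34.1 (27 to 42.5) and 47.8 (39.3 to 57.5). Genes without an interval numbered 3, 0, 4 and 13 in this order. The part of read placement in this pattern was not tested.

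Of the 4 short strings searched, 1 differed from its whole list by more than counting error, in MEFs alone. Windows of 300 bp centred on the intervals were searched on both strands. The hexamer TGCCGC (bound by ZFP57 when methylated) stood in 1 MEF member window (0.316%, 0.008 to 1.75). It stood in 7 mESC member windows (1.58%, 0.638 to 3.23). The whole lists had 1.35% and 1.48%, and 300 bp windows tiled over the member territories had 2.32%. The MEF limits, from 1 window, lay below the tiled value, and the mESC limits held it. The AP-1 letters TGANTCA stood in 5.70% (3.41 to 8.85) and 7.22% (4.99 to 10.0), against 9.27% and 8.18% of the whole lists. The MEF value lay below its list by slightly more than counting error, while the 8.81% of tiled member windows lay within its limits. The letters GGGNGGG, a core of KLF and SP sites, stood in 14.9% and 19.0%, against 16.2% and 19.6%. A match is a string of letters and not a bound site, and CpG, at 84.2% and 83.1% of windows, was as frequent as in the whole lists (82.2% and 81.7%).

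The genes of the machinery that KRAB proteins call on are not Zfp genes, and were read beside them from a list of 19. Their median density was 55.9 MEF and 88.4 mESC intervals per Mb, and 6 and 7 of them reached 2 times the reference (background 13.2% and 11.9%). Cbx5, which codes for the HP1 alpha protein, had 11 MEF and 13 mESC intervals, or 4.18 and 3.81 times the reference density. Trim28 and Setdb1 each had 3 and 6, at 1.5 and 2.31 times for Trim28 and 1.45 and 2.24 times for Setdb1. Chd4, a chromatin remodeller of the NuRD complex, had 1 and 9 intervals (exact binomial p = 0.0505, adjusted p = 1). Of 7 cofactor genes with enough intervals 0 passed the test after adjustment, and 0 had an unadjusted p below 0.05. For genes with few intervals, such as Chd4, the test could hardly have given a call. More mESC than MEF intervals were listed at 16 of the 19, against 46.8% of all protein-coding autosomal genes. That share includes genes with no interval, while each of the 19 had an mESC interval, and the mESC list is longer as a whole.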

How the data were processed

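The authors deposited 1 interval list per cell type with positions and a fold, a linear ratio, per the file headers. The submitters' processing notes name Bowtie2 and SAMtools, with hg38 as a build, whereas mm10 stands in the series design text. On mm10, 0 autosomal intervals ended past a chromosome. The interval caller, read placement and pooling of libraries were not stated there. Starts may count from 0 or 1, which leaves 1 bp of doubt.

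Gene models came from GENCODE M21 basic, sequence and soft-masking from GRCm38.p6. Counting, exact Poisson and binomial limits, and the per-gene test used Python 3.11.15, numpy 2.4.6, pandas 2.3.3, SciPy 1.17.1 and Biopython 1.88. An interval in several territories counted once in set totals and once for each gene. Copies were exact 50-base windows on either strand; for all genes every window in steps of 1000 was read. Both the window count and the per-gene test were tested on simulated data.

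Named genes were the 6 members with most intervals per list, the 5 highest and 5 lowest mESC shares among members with at least 10 intervals, a fixed set of 18, the 6 largest clusters (ties alphabetical), the 5 highest folds per list, and 3 promoter intervals per list. Members and lists were chosen with earlier results of these data known. Alternatives changed flanks, neighbour distance, overlap, fold, copies and thresholds. Values per library were not analysed here.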

Additional observations from a re-analysis of the deposited data

How the results depend on the processing

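The lists hold folds above 2 and no counts, so depth is unknown and an unlisted stretch is not shown to be inactive. No paired analysis was possible because the lists give no value per library. Over 12 other settings, which changed flanks, neighbour distance, the intervals kept or the clusters kept (the 2 clusters of 15 members were left out in turn), the ratio to all genes was 0.823 to 1.22 in MEFs and 0.968 to 1.31 in mESCs, above 1 in 11 of 12 in each list.

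With intervals at or above the median fold alone, member densities were 21.4 MEF and 30.01 mESC intervals per Mb (ratios 1.14 and 1.24), and 41.1% of mESC intervals were shared. Without intervals holding a copied window they were 24.6 and 35.9 per Mb of territory, with ratios of 0.823 and 0.968 to all genes counted likewise, and 43.3% of MEF and 28% of mESC intervals were shared. Per Mb of DNA without copies, an alternative chosen after seeing the data, they were 30.6 and 44.7. With intervals of 1 list alone they were 22.8 and 41.6, against 20.3 and 31.8 over all genes, and the members' mESC share was 64.6%. Leaving out shared intervals raises the mESC share over all genes as well. An overlap of at least 50% of both intervals left 38.9% of MEF and 27.8% of mESC intervals shared.

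The 44 members at 2 times the MEF reference became 68 at 1.5 times (background 23.1%), 12 at 3 times (3.54%), 29 with 25 kb flanks (8.84%) and 29 without copied intervals (12.1%). The 45 in mESCs became 75 (24.1%) and 13 (2.69%) at those thresholds. Members with no interval numbered 67 (32.8%, background 42.3%), 34 (16.7%, background 25.6%) and 7 (3.43%, background 5.81%) with flanks of 0, 5 and 25 kb, against 20. The cause was not tested, beyond the fewer or more intervals each setting keeps. The per-gene test called 0 members under all 6 other settings run, with 1 member below an unadjusted p of 0.05 with 25 kb flanks and 1, Zfp935, with intervals of 1 list alone (exact binomial p = 0.0122, adjusted p = 0.988). Genes with few intervals could hardly be called in these settings either.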
